A study of Saccharomyces cerevisiae with 74 samples.

Results

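The genes described here are the 10 glucose-repressed genes of gluconeogenesis, the glyoxylate cycle and growth on ethanol or acetate in Saccharomyces cerevisiae: FBP1, PCK1, ICL1, MLS1, MDH2, ADH2, ACS1, CAT8, SIP4 and JEN1. They were taken by name, 10 of the 6551 protein-coding rows in the tables. The rule is a list of names with no threshold on a measured value, although earlier results of these data were known when it was drawn up. Each was followed through 18 RNA-seq libraries, which measured its mRNA, and through 56 CRAC libraries. CRAC (crosslinking and analysis of cDNA) sequences the RNA fragments that UV light attaches to a tagged protein, here the translation initiation factors eIF4A, eIF4B and Ded1, or to nothing in untagged cells. The question put to these genes is whether mRNAs of the new carbon source, and those that move in heat, are bound by the scanning factors as their levels change.

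Yeast grown on glucose keeps this group of genes repressed. The repressor Mig1 and its relatives hold their promoters while the Snf1 kinase is inactive, and when glucose runs out Snf1 releases Mig1 and activates the zinc-cluster activators Cat8 and Sip4, which act on the enzyme genes. The enzymes then build glucose from ethanol, acetate, lactate or glycerol: Adh2 and Acs1 feed acetyl units in, Icl1 and Mls1 form the glyoxylate bypass, Mdh2 makes oxaloacetate, and Pck1 and Fbp1 catalyse the irreversible steps of gluconeogenesis. Jen1 imports lactate. When glucose returns, the GID ubiquitin ligase removes Fbp1, Pck1 and Mdh2 proteins.

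All strains derive from BY4741 (MATa his3Δ1 leu2Δ0 met15Δ0 ura3Δ0) and grew in tryptophan-free synthetic medium with 2% glucose at 30°C. The RNA-seq groups were wild type without treatment (wt control, n = 3), wild type moved for 16 min to medium with glycerol and ethanol and no glucose (GE, n = 2), wild type at 42°C for 16 min (n = 3), wild type at 42°C for 16 min with cycloheximide, which blocks translation elongation (CHX, n = 2), and ski2 deletion and xrn1 deletion cells without treatment and at 42°C for 16 min (n = 2 each). Ski2 is the helicase that feeds mRNA to the 3′ exosome, and Xrn1 is the cytoplasmic 5′ exonuclease. The CRAC strains carried a tag at the native locus, with its own promoter, on TIF1 (one of the genes for eIF4A), TIF3 (eIF4B) or DED1. They were sampled as control (n = 6, 4 and 3 libraries for eIF4A, eIF4B and Ded1), after a mock shift of 16 min into the same glucose medium (4, 3 and 2), in GE for 30 s (3, 2 and 2) or 16 min (4, 3 and 3), and at 42°C for 16 min (4, 4 and 3). For eIF4B there were also 2 libraries at 42°C with CHX, and 4 libraries came from untagged cells. The RNA-seq had no mock shift. The effect of the transfer on mRNA levels was therefore not tested apart from GE or heat, nor was loss of glucose apart from the glycerol and ethanol. Except for duplicate RNA cultures, nothing in the labels says that the libraries of a group are separate cultures, so p-values measure the spread between these libraries.

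RNA-seq levels are given as reads per 1000000 reads of the Schizosaccharomyces pombe RNA added at 2% of the RNA before library preparation. They are therefore levels per amount of total RNA, and show neither a change in RNA per cell nor one in the number of cells. Fold changes and adjusted p-values in the text come from edgeR's quasi-likelihood test with Benjamini-Hochberg adjustment over all genes tested, and a gene is called when its adjusted p is below 0.05. RNA-seq libraries held 26398967 to 46538567 counted reads, of which 96.5% to 99.0% lay on protein-coding genes except in GE library D (83.6%). Tagged CRAC libraries held 183689 to 4385132 counted reads, 13.7% to 72.4% of them on protein-coding genes. The targeted genes matched the strain labels. SKI2 had 5 to 14 reads in each ski2 library and 4150 to 7268 in each wt control library, and XRN1 had 59 to 202 reads in each xrn1 library and 12648 to 21964 in each wt control library. The heat shock genes HSP26, SSA4 and HSP104 rose 8.32 ± 0.27, 8.24 ± 0.27 and 5.22 ± 0.23 (SE) on the log2 scale at 42°C and 3.96, 4.29 and 3.16 in GE.

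The basal levels of the 10 genes in glucose spanned nearly 3 orders of magnitude. The upper end was ADH2, whose values are uncertain (next paragraph). Compared per kilobase of annotated transcript, the mean level in wt control was highest for ADH2 (16201 reads per 1000000 S. pombe reads per kb), followed by MDH2 (9183), ICL1 (487), ACS1 (263), PCK1 (113), JEN1 (92.3), CAT8 (78.0), SIP4 (77.8), MLS1 (43.4) and FBP1 (19.9). The libraries of PCK1 and JEN1 overlapped, as did those of CAT8 and SIP4, so those neighbours in the order did not differ beyond their spread. All 10 passed the RNA-seq filter on low counts, but FBP1 rested on 14 to 21 reads in each wt control library.

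ADH2 needs a separate reading. Its level followed that of ADH1, the gene of the fermentative alcohol dehydrogenase, whose coding sequence is closely related. CRAC reads that fit several places were assigned randomly by the authors, and how such RNA-seq reads were treated is not given in the sources used here. ADH2 reads were between 4.77% and 5.71% of ADH1 reads in each of the 18 RNA-seq libraries, in glucose, GE, heat and both mutants, and over all RNA-seq libraries together they were 5.02%. In CRAC the pooled share was 7.91% for Ded1, 5.49% for eIF4B and 3.75% for eIF4A. Over the 18 RNA-seq libraries the log2 levels of ADH1 and ADH2 had a Pearson r of 0.99. How many of these reads came from ADH1 was not tested. All ADH2 values, here and below, and its place in the order above are uncertain for that reason.

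**Figure D1:**
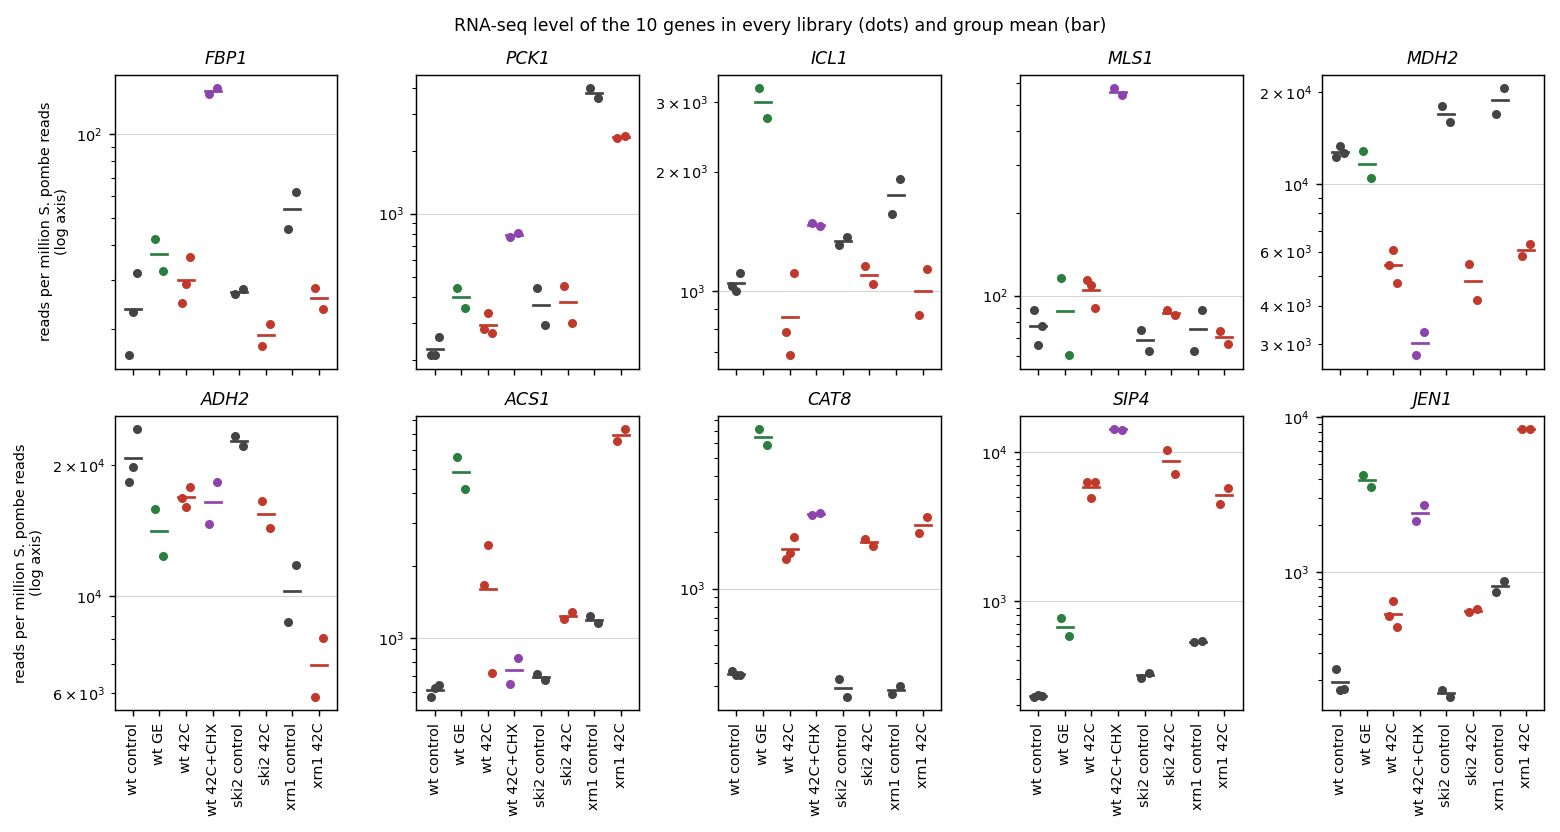
RNA-seq level of each gene (y axis, reads per 1000000 S. pombe reads, log axis with a range of its own per panel) in the 8 RNA-seq groups (x axis). Dots are libraries and bars are group means. CAT8, ACS1, JEN1 and ICL1 stood highest among the wild-type groups in GE, SIP4 at 42°C with CHX, PCK1 highest of all groups in xrn1 control, and FBP1 and MLS1 in CHX.

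After 16 min in GE the transporter gene JEN1, the activator gene CAT8 and the acetyl-CoA synthetase gene ACS1 had risen most. In wild type, JEN1, CAT8 and ACS1 rose 19.8-fold, 18.5-fold and 8.01-fold, ICL1, SIP4 and PCK1 rose 2.92-fold or less, and MLS1, MDH2 and FBP1 were not called. In all 6 of the 10 genes were called higher and 1 lower, beside 18.4% and 40.4% of all 6319 genes tested. The median log2 change was 1.17 over the 10 genes and -0.26 over all genes.

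CAT8, the activator gene, read 362, 346 and 345 reads per 1000000 S. pombe reads in the control libraries and 7117 and 5864 in GE. Every GE library lay far above every control library, with a log2 fold change of 4.21 ± 0.19 (SE) and an adjusted p of 6.4e-82. SIP4, which encodes the activator that acts beside Cat8, read 227, 233 and 229 in control and 765 and 578 in GE. Its groups did not overlap either, but its log2 fold change was 1.55 ± 0.19 (adjusted p = 2.3e-14).

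JEN1, the lactate and pyruvate permease of the plasma membrane, read 235, 174 and 176 in control and 4241 and 3558 in GE. The log2 fold change was 4.31 ± 0.20 (adjusted p = 6.5e-82). ACS1, the acetyl-CoA synthetase used without glucose, read 574, 624 and 638 in control and 5636 and 4152 in GE, a log2 fold change of 3.00 ± 0.19 (adjusted p = 1.0e-48). Its glucose-grown counterpart ACS2 moved the other way, with a log2 fold change of -0.80 ± 0.20 (adjusted p = 0.00017).

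Among the glyoxylate enzymes, ICL1 (isocitrate lyase) read 1027, 1000 and 1109 in control and 3255 and 2737 in GE, with a log2 fold change of 1.52 ± 0.18 (adjusted p = 5.4e-15). MLS1 (malate synthase) read 88.9, 66.2 and 77.3 in control and 116 and 60.4 in GE, so its groups overlapped, and its log2 fold change of 0.18 ± 0.31 did not pass the test (adjusted p = 0.63).

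For the gluconeogenic enzymes, PCK1 (phosphoenolpyruvate carboxykinase) read 210, 212 and 258 in control and 441 and 354 in GE. Its log2 fold change was 0.82 ± 0.21 (adjusted p = 0.00024). FBP1 (fructose-1,6-bisphosphatase) read 16.2, 23.2 and 31.8 in control and 42.3 and 32.4 in GE. The FBP1 groups touched without overlapping, and its log2 fold change of 0.69 ± 0.41 was not called (adjusted p = 0.14). With the earlier libraries A to F alone it was 0.98 and was called (adjusted p = 0.023). MDH2 (cytosolic malate dehydrogenase) read 12263, 13325 and 12569 in control and 12838 and 10463 in GE, with overlapping groups and a log2 fold change of -0.13 ± 0.19 (adjusted p = 0.59). ADH2 was called lower (-0.56 ± 0.20, adjusted p = 0.011), beside -0.60 ± 0.22 for ADH1 (adjusted p = 0.012). The ADH2 call was lost without GE library D (-0.39, adjusted p = 0.20) or without control library H (-0.43, adjusted p = 0.074).

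Other genes of the same metabolism and its regulation were followed as lists. Of 27 further genes for use of ethanol, acetate, fatty acids, lactate and glycerol, 18 were called higher and 2 lower in GE, where 18.4% of all genes were called higher and 40.4% lower. The same shares are the background of the 3 lists that follow. The largest called changes were those of POT1 (peroxisomal thiolase), ADY2 (acetate transporter) and POX1 (acyl-CoA oxidase), with log2 fold changes of 4.92 ± 0.24, 4.86 ± 0.24 and 4.05 ± 0.25. Of 21 regulators of glucose repression, 9 were called higher and 2 lower. REG2 (a phosphatase subunit gene), HAP4 (the activator subunit for respiratory genes) and ADR1 (an activator of ADH2 and peroxisomal genes) led with 3.20 ± 0.27, 3.01 ± 0.19 and 2.19 ± 0.19. Of the 8 GID ligase genes tested, 7 were called higher and none lower. VID24, which encodes the substrate receptor, RMD5 and FYV10 had log2 fold changes of 2.34 ± 0.18, 1.84 ± 0.18 and 1.52 ± 0.18. The 8 glucose-grown counterparts were 6 lower and none higher, with PDC1 (pyruvate decarboxylase), ACS2 and CDC19 (pyruvate kinase) at -0.91 ± 0.22, -0.80 ± 0.20 and -0.65 ± 0.22. The CDC19 call was lost without GE library D (adjusted p = 0.15). The median log2 changes of these lists were 1.24, 0.30, 1.35 and -0.60, beside -0.26 over all genes. MDH1 and MDH3, the mitochondrial and peroxisomal malate dehydrogenase genes, had log2 fold changes of 0.36 ± 0.20 and -0.14 ± 0.19 and were not called.

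Heat shock with glucose present raised part of the same set. At 42°C for 16 min SIP4 rose 25.2-fold in wild type, CAT8 4.62-fold, JEN1 2.73-fold and ACS1 2.63-fold, and MDH2 fell 2.34-fold. So 4 of the 10 genes were called higher and 1 lower, beside 17.4% and 63.3% of all genes. The median log2 change was 0.40 over the 10 genes and -0.77 over all genes.

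SIP4 read 227, 233 and 229 in control, and 6260, 4867 and 6271 at 42°C. Every heat library lay far above every control library, and the log2 fold change was 4.66 ± 0.19 (adjusted p = 1.5e-96). The genes next to SIP4 on the chromosome, DPB11 and ARG3, had log2 changes of -0.78 and -1.60 in the same comparison. CAT8 read 1445, 1543 and 1884 at 42°C, all above the control libraries, with a log2 fold change of 2.21 ± 0.17 (adjusted p = 1.0e-33). Its neighbours YMR279C and GPI12 were higher as well, with log2 changes of 1.53 and 0.35. JEN1 read 523, 645 and 442 at 42°C, again with no overlap, and its log2 fold change was 1.45 ± 0.18 (adjusted p = 3.4e-15).

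ACS1 read 1664, 2432 and 720 at 42°C. Libraries E and F, from the earlier lettered set, were well above every control library, and library I from the later set was only slightly above. Within libraries A to F the log2 fold change was 1.78, and between H and I of the later set it was 0.17 (adjusted p = 0.63), against 1.39 ± 0.17 in the fit to all libraries. The heat change of ACS1 in wild type therefore rested on the earlier libraries.

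MDH2 read 5430, 6095 and 4758 at 42°C, below every control library, with a log2 fold change of -1.23 ± 0.17 (adjusted p = 5.1e-12). MDH1 went up (1.21 ± 0.18) and MDH3 down (-0.94 ± 0.17), the latter relative to an all-gene median of -0.77. PCK1, FBP1, MLS1, ICL1 and ADH2 were not called, with log2 fold changes of 0.38 ± 0.19, 0.37 ± 0.38, 0.42 ± 0.28, -0.28 ± 0.17 and -0.30 ± 0.18. These depended on the scale. TMM scaling sets the centre of all genes near 0 and moved the median of all genes from -0.77 to 0.13. With it all 10 genes were called, 9 of them higher. The shares of all genes called on that scale are not given here, so this count is no result about the 10 as a set. ICL1 and ADH2 changed sign to 0.62 and 0.61, and MDH2 remained lower at -0.33.

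Of the 27 further carbon-source genes, 17 were called higher and 5 lower at 42°C, beside 17.4% and 63.3% of all genes. ALD3 and ALD2, stress-induced aldehyde dehydrogenase genes with closely related sequences whose reads may be shared, had log2 fold changes of 6.25 ± 0.23 and 3.95 ± 0.20, and MAE1 (mitochondrial malic enzyme) had -3.69 ± 0.19. Of the 21 regulators 4 were called higher and 12 lower, which is near the shares over all genes and no result about the list. Its largest called changes were those of the repressor genes MIG2, MIG3 and MIG1 at -2.54 ± 0.17, -2.31 ± 0.19 and -1.75 ± 0.17. In GE these MIG genes were called higher instead, at 1.03 ± 0.18, 1.25 ± 0.19 and 0.90 ± 0.18. The GID genes were 7 higher and none lower, with FYV10, VID30 and RMD5 at 1.59 ± 0.16, 1.11 ± 0.16 and 0.88 ± 0.16. The 8 glucose-grown counterparts were 1 higher and 6 lower, also near the background, with ACS2, CDC19 and PDC1 at -2.36 ± 0.18, -1.48 ± 0.20 and -1.23 ± 0.20. The list medians were 1.03, -0.48, 0.59 and -0.92, beside -0.77 over all genes.

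Heat and GE were then compared directly. At 42°C 1 of the 10 genes was called higher than in GE and 6 lower, beside 11.4% and 58.3% of all genes. The medians were -0.77 over the 10 and -0.59 over all genes. These counts are near the shares over all genes and no result about the 10 as a set. SIP4 was 8.63-fold higher in heat (3.11 ± 0.21, adjusted p = 1.2e-43). JEN1, CAT8, ICL1 and ACS1 were 7.27-fold, 4.00-fold, 3.48-fold and 3.05-fold lower. The activator genes CAT8 and SIP4 thus had opposite orders between the 2 stresses. MDH2 was also lower in heat (-1.10 ± 0.19). PCK1 was called narrowly at -0.43 ± 0.20 (adjusted p = 0.049), lost that call with DESeq2 (adjusted p = 0.053) and without any of libraries C, E and I, and changed sign to 0.20 with TMM scaling.

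**Figure D2:**
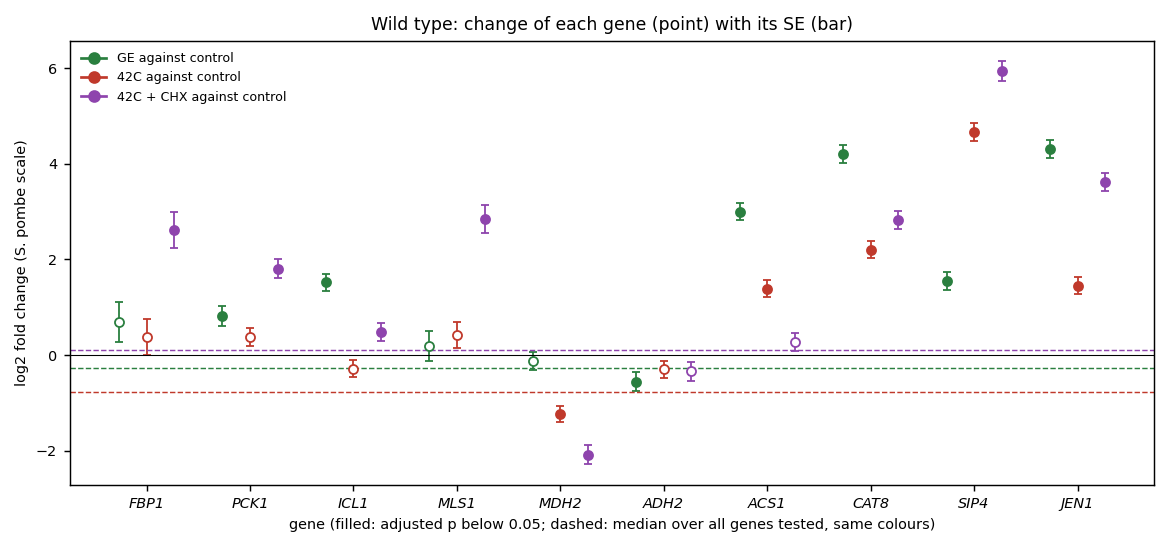
Log2 fold change against wt control (y axis) of each gene (x axis) in GE, at 42°C and at 42°C with CHX. Points are edgeR estimates with SE bars, filled when the adjusted p is below 0.05, and dashed lines give the median over all genes tested. SIP4 led at 42°C (4.66) and CAT8 and JEN1 in GE (4.21 and 4.31), while FBP1 and MLS1 were called only with CHX.

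Cycloheximide during heat shock was tested to see how these mRNAs fare when elongation is blocked. Relative to 42°C alone, 7 of the 10 genes were called higher and 2 lower, beside 78.8% and 2.88% of all genes, and the median of all genes was 1.02, close to the 1.03 of the 10 genes. The share called higher was thus near the background and is no result about the 10 as a set. On the scale set to that centre (TMM), the calls higher for FBP1, MLS1, JEN1, PCK1 and SIP4 stayed, at 1.27, 1.44, 1.19, 0.45 and 0.31. CAT8 changed sign to -0.36, ICL1 changed sign to -0.21 and lost its call, and ADH2 was called lower at -1.02. The shares of all genes called on that scale are not given here.

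FBP1 and MLS1 were called in neither stress alone and had their highest levels here. FBP1 read 24.9, 29.0 and 36.5 at 42°C and 139 and 147 with CHX, a log2 fold change of 2.24 ± 0.35 (adjusted p = 1.1e-09). MLS1 read 114, 110 and 89.9 at 42°C and 577 and 541 with CHX, or 2.42 ± 0.28 (adjusted p = 5.9e-16). Neither gene's groups overlapped. JEN1 read 2132 and 2697 with CHX (2.17 ± 0.18), PCK1 read 775 and 810 (1.43 ± 0.20), and SIP4 read 14191 and 14117 (1.29 ± 0.17), each above its heat libraries.

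MDH2 went lower still, reading 2749 and 3286 with CHX, at -0.85 ± 0.20 (adjusted p = 2.9e-05). ACS1 read 649 and 825 with CHX, which overlapped heat library I (720) but not E and F. Its log2 fold change was -1.12 ± 0.19 in the fit to all libraries and 0.03 in the later libraries H to S alone (adjusted p = 0.91), where the CHX libraries also belong. In those later libraries ICL1 and CAT8 lost their calls as well, at 0.40 each. Against wt control, 7 genes were called higher and 1 lower with CHX in heat, beside 39.4% and 32.1% of all genes. SIP4 was 61.6-fold higher and JEN1 12.3-fold, MLS1 and CAT8 7.15-fold and 7.10-fold, FBP1 6.13-fold and PCK1 3.50-fold, and MDH2 was 4.22-fold lower.

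Loss of Ski2 changed these mRNAs little. In ski2 control against wt control, none of the 10 was called by edgeR or DESeq2, beside 0.253% of all genes called by edgeR in either direction. An unadjusted edgeR p below 0.05 was found for 3 of the 10, beside 475 of all 6319 genes. PCK1 was the nearest, reading 439 and 292 in ski2 control, with a log2 fold change of 0.69 ± 0.21 (adjusted p = 0.16). At 42°C, 1 of the 10 differed between ski2 and wild type, beside 2.18% of all genes. This was SIP4 at 10246 and 7057, with 0.58 ± 0.18 (adjusted p = 0.049), a call lost in the later libraries alone and without any of libraries E, F and L. DESeq2 called none of the 10, and gave SIP4 no adjusted p. Without library I, 3 of the 10 were called. Within ski2, heat gave 4 calls higher and 2 lower, beside 15.0% and 65.0% of all genes, with SIP4, CAT8, JEN1 and ACS1 at 4.77 ± 0.23, 2.58 ± 0.22, 1.77 ± 0.22 and 0.84 ± 0.21 and MDH2 at -1.81 ± 0.21. ADH2, at -0.56 ± 0.22, changed sign with TMM scaling (0.47), and so did the uncalled ICL1 (-0.28, and 0.75 with TMM). The heat response in ski2 did not differ detectably from that in wild type for any of the 10. None was called by edgeR or DESeq2, beside 0.0317% of all genes called by edgeR. An unadjusted edgeR p below 0.05 was found for 2 of the 10, beside 225 of all 6319 genes.

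Loss of Xrn1 had large and unequal effects in glucose. PCK1 stood 16.7-fold above wild type, JEN1 4.13-fold, SIP4 2.32-fold, FBP1 2.30-fold and ACS1 1.95-fold, and ADH2 stood 2.02-fold below. In all, 7 of the 10 genes were called higher and 1 lower, beside 42.6% and 11.8% of all genes, and the medians were 0.85 over the 10 and 0.32 over all genes.

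PCK1 read 3989 and 3551 in xrn1 control, against 210 to 258 in wt control, with a log2 fold change of 4.06 ± 0.21 (adjusted p = 3.0e-66). No wild-type library of any treatment came near these values, the highest being 810 with CHX. The genes on either side, YKR096W and UBP11, had log2 changes of 0.46 and 1.44. JEN1 read 746 and 879 (2.05 ± 0.19), SIP4 532 and 533 (1.21 ± 0.19), and ACS1 1235 and 1154 (0.97 ± 0.19), each above all wt control libraries. The ACS1 call was lost with TMM scaling (0.60, adjusted p = 0.084). FBP1 (1.20 ± 0.40) rested on 29 and 33 reads and was not called within the later libraries alone (0.75, adjusted p = 0.25). ICL1 and MDH2 (0.74 ± 0.18 and 0.56 ± 0.19) also lost their calls in the later libraries, and MDH2 with TMM scaling. CAT8 and MLS1 were not called (-0.29 ± 0.20 and -0.05 ± 0.33). ADH2 read 8735 and 11792 (-1.02 ± 0.20), beside -1.06 ± 0.22 for ADH1, and its reads were 4.82% and 5.11% of those of ADH1.

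Heat in the xrn1 strain raised the transporter and ACS1 beyond their wild-type heat levels. Against wild type at 42°C, 4 genes were called higher and 1 lower in xrn1, beside 41.3% and 12.6% of all genes. These counts are near the background, and the medians were 0.19 over the 10 and 0.29 over all genes. ADH2 read 5886 and 8019, below every wild-type heat library. JEN1 read 8355 and 8350, against 4241 and 3558 in wild-type GE (not tested), and was 15.6-fold above wild type in heat (3.96 ± 0.19). PCK1 read 2304 and 2341 (2.98 ± 0.20), and ACS1 read 6568 and 7329 (2.11 ± 0.18). All xrn1 libraries belong to the later set, and within libraries H to S, where I is the only wild-type heat library, the ACS1 difference was 3.27. The fourth was CAT8 at 0.43 ± 0.18 (adjusted p = 0.029), lost with TMM scaling, in the later libraries and without any of libraries E, F and S.

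Within xrn1, heat gave 4 calls higher and 5 lower, beside 13.0% and 67.5% of all genes. The higher genes were JEN1 (3.36 ± 0.21), SIP4 (3.26 ± 0.22), CAT8 (2.93 ± 0.22) and ACS1 (2.54 ± 0.21), the same 4 as in wild type. MDH2 fell by 1.62 on the log2 scale. PCK1 and ICL1 were called lower at -0.70 ± 0.21 and -0.80 ± 0.21 but changed sign with TMM scaling, to 0.23 and 0.12. ADH2 (-0.56 ± 0.22) did so as well, to 0.36, and the uncalled MLS1 (-0.10 ± 0.36) to 0.86. FBP1, at -1.04 ± 0.44, lost its call with TMM scaling (-0.09) and without any of libraries N, R and S.

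The difference between the heat responses of xrn1 and wild type was tested as an interaction. The response was larger in xrn1 for 3 genes and smaller for 2, beside 12.0% and 12.6% of all genes. JEN1 responded more strongly by 1.91 ± 0.27 (adjusted p = 1.9e-10), and ACS1 by 1.15 ± 0.26 (adjusted p = 0.00018). CAT8 responded more by 0.72 ± 0.27 (adjusted p = 0.031), and this call was lost in the later libraries and without any of 6 libraries. SIP4 responded less, by -1.40 ± 0.27 (adjusted p = 4.5e-06). It read 4485 and 5711 in xrn1 at 42°C, not called against wild type in heat (-0.19 ± 0.18), while its xrn1 control level was called higher. PCK1 responded less by -1.08 ± 0.28 (adjusted p = 0.0014), which was not called in the later libraries alone (-0.76, adjusted p = 0.21). In those libraries the interaction of ACS1 was 2.37, JEN1 2.03 and SIP4 -1.52, all called, and those comparisons had H and I as the only wild-type libraries. ACS1 lost its interaction call with DESeq2 (adjusted p = 0.0925).

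**Figure D3:**
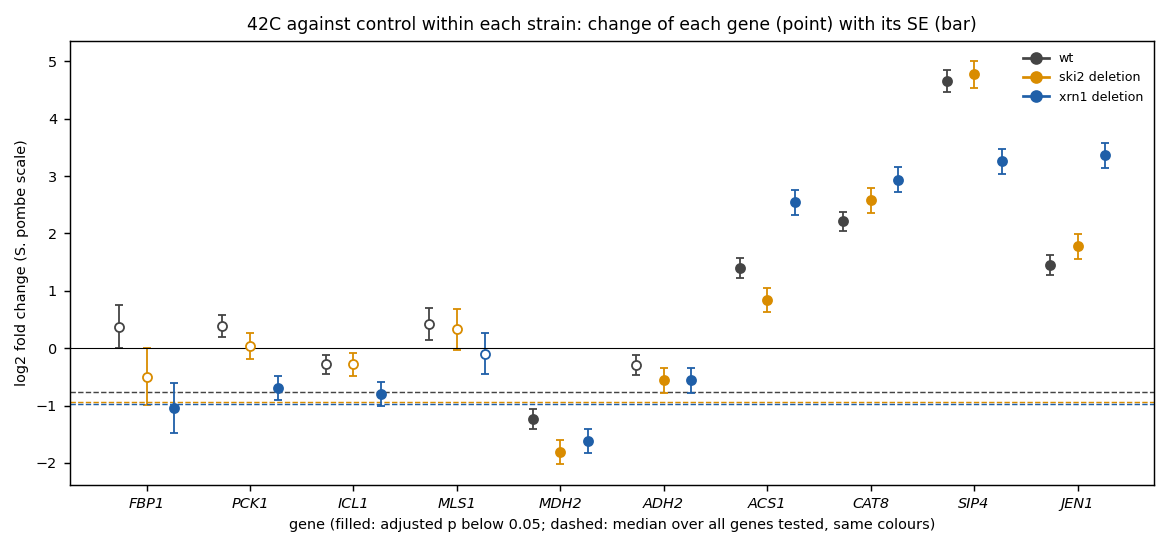
Log2 fold change of 42°C against control within wild type, ski2 and xrn1 cells (y axis) for each gene (x axis). Points are edgeR estimates with SE bars, filled when the adjusted p is below 0.05, and dashed lines give the median over all genes. SIP4 was higher in heat by 4.66, 4.77 and 3.26 in wild type, ski2 and xrn1, and JEN1 by 1.45, 1.77 and 3.36.

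The genes whose RNA-seq pattern was most like the mean standardized pattern of the 10 were RMR1, AIM18, MLH3, MAL13 and YIL077C, with Pearson r of 0.95, 0.95, 0.94, 0.94 and 0.94 over the 18 libraries among 6212 genes. The libraries of a group are near-copies, so this likeness reflects 8 group levels. Among the 10 genes themselves r with that mean ran from -0.39 (ADH2) and -0.35 (MDH2) to 0.83 (JEN1), with FBP1 at 0.71 and CAT8 at 0.71. Each of the 10 is part of that mean, which raises its own r. Between pairs of the 10, r ran from -0.93 (MDH2 and SIP4) to 0.81 (FBP1 and MLS1). These r values are a description over libraries that share groups.

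In CRAC the 10 genes gave few reads. Their summed level ran from 20.6 to 473.9 reads per 1000000 counted reads over the eIF4A libraries, 62.3 to 431 over eIF4B and 308 to 641 over Ded1. Untagged libraries held only 347 to 46692 counted reads, and the 10 genes had 24 reads in all 4 of them together, 23 on MDH2 and 1 on CAT8. The 23 MDH2 reads came from 2 libraries of 8140 and 5798 counted reads, where they amount to 1228 and 2242 reads per 1000000, and the other 2 had none. Pooled over the 4 untagged libraries MDH2 stood at 377 reads per 1000000, against 350 in the Ded1, 89.6 in the eIF4B and 57.8 in the eIF4A control libraries pooled the same way. Of the 10 genes, 6 passed the count filter for eIF4A, 9 for eIF4B and 9 for Ded1. FBP1 failed for every protein, MLS1, CAT8 and JEN1 also failed for eIF4A, and they are given as values only. FBP1 read up to 57.5 reads per 1000000 in an eIF4A control library and at most 11.0 in any other.

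Ded1, a DEAD-box helicase of scanning, gave the deepest view. At 42°C, SIP4 and MDH2 were called, 1 gene higher and 1 lower, beside 3.76% and 23.0% of all genes. SIP4 had 2.88, 0.83 and 0 reads per 1000000 in the control libraries, 13.4 and 12.5 after the mock shift, and 124, 150 and 100 at 42°C. All heat libraries lay above all others, with a log2 fold change of 6.31 ± 0.99 (adjusted p = 1.7e-05) against control and 3.26 (adjusted p = 0.012) against the mock shift. The control value is thin, since it rested on 10 reads in 3 libraries.

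MDH2 on Ded1 had 399.7, 336 and 192 reads per 1000000 in control, 472 and 398 in mock, and 52.4, 90.3 and 108 at 42°C. The groups did not overlap, and the log2 fold change was -1.90 ± 0.39 (adjusted p = 0.00059), beside a median of -0.82 over all genes. The part of the untagged background in these MDH2 levels was not tested. Of the genes not called, CAT8 had 5.76, 11.1 and 20.9 in control and 32.1, 25.3 and 29.6 at 42°C (1.24 ± 0.95), and ACS1 had 82.5, 72.7 and 106 in control and 43.2, 21.1 and 33.0 at 42°C (-1.42 ± 0.71). These groups did not overlap either, but their errors were large. PCK1 (6.84 to 15.3 in control, 4.64 to 5.36 at 42°C) and ADH2 (59.4 to 73.0, and 88.8 to 104) were also apart and not called. The share of all genes without overlap was not computed, so the lack of overlap is no result about these genes as a set.

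In GE, Ded1 on ACS1 was low at 30 s, with 11.3 and 7.66 reads per 1000000, against the control values above (-3.19 ± 0.92, adjusted p = 0.033). This was the 1 gene called lower of 9, beside 8.12% of all genes and an all-gene median of -0.97. ACS1 was not called without any 1 of the 5 libraries concerned. CAT8 had 0 and 0.70 at 30 s, from 1 read, and was not called (adjusted p = 0.051). At 16 min ACS1 read 11.9, 11.6 and 85.5, so that 1 library of 3 was at control level, while its mRNA was 8.01-fold higher. ICL1 was called lower at 16 min (-3.92 ± 1.11, adjusted p = 0.046), the 1 gene of 9 beside 3.47% of all genes and a median of -0.71. It read 1.61, 3.65 and 3.98, against 19.8, 14.0 and 109 in control, and the call was lost without any 1 of the 6 libraries and against the mock shift (adjusted p = 0.28). After the mock shift none of the 9 was called by edgeR or DESeq2, beside 0% of all genes called by edgeR. An unadjusted edgeR p below 0.05 was found for 1 of the 9, beside 100 of all 5800 genes.

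**Figure D4:**
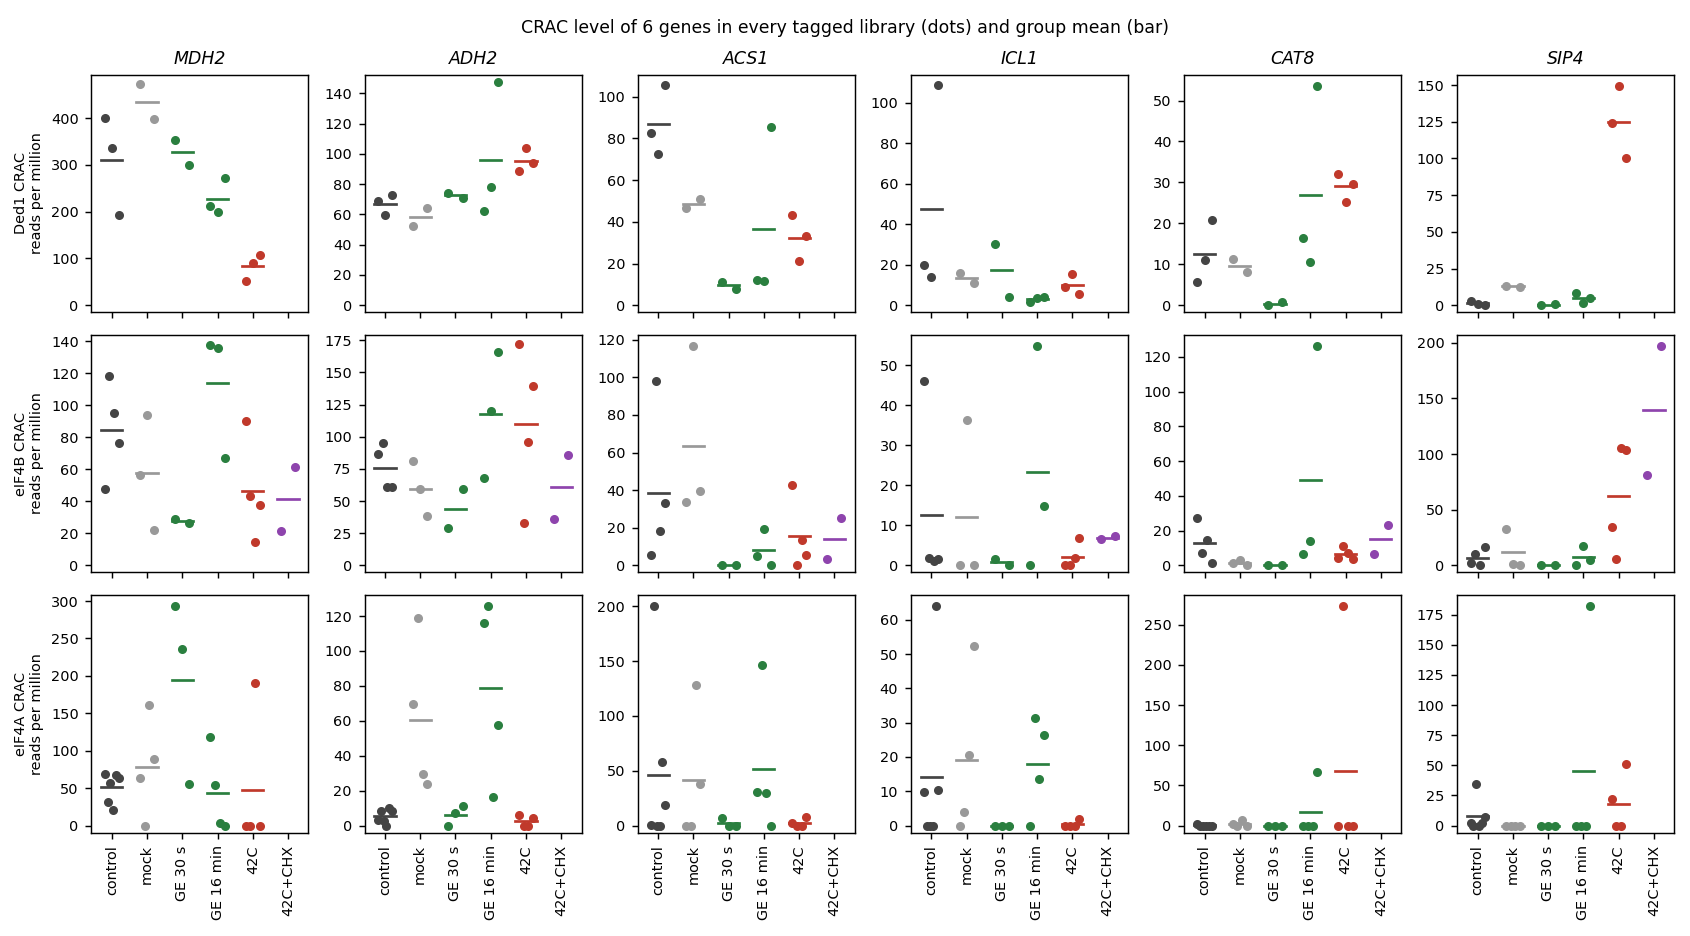
CRAC level of 6 of the genes (y axis, reads per 1000000 counted reads, a range of its own per panel) in every tagged library by treatment (x axis), for Ded1, eIF4B and eIF4A. Dots are libraries and bars are group means. On Ded1 SIP4 was at 100 to 150 at 42°C and below 14 elsewhere, whereas for eIF4A single libraries stood far above the others.

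eIF4B, a cofactor of the eIF4A helicase, had 9 genes tested. At 30 s in GE, ACS1 was called lower, the 1 gene of 9 beside 10.7% of all genes (adjusted p = 0.025). It had no read in either 30 s library and 5.51, 98.0, 18.3 and 33.0 reads per 1000000 in control. Against a floor of 3 counts over the group its mean was at least 27.8-fold lower, or at least 13.6-fold without control library 21. The median log2 change over all genes tested was -2.24 in this comparison. Protein-coding genes held 15.26% and 16.85% of counted reads in the 30 s libraries, and 62.54% to 70.57% in the control libraries. The call was lost without either 30 s library or without control library 21. CAT8, JEN1, SIP4 and MLS1 also had no read at 30 s, with control means of 12.8, 14.9, 7.04 and 9.68, and were not called by edgeR. DESeq2 called 4 of the 9 in this comparison, and TMM scaling none. DESeq2 also called many more of all genes than edgeR here (counts in the last section), so its count is no result about the 9.

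At 42°C none of the 9 was called on eIF4B by edgeR, beside 25.9% of all genes. SIP4 was the only one with an unadjusted edgeR p below 0.05, beside 2031 of all 5555 genes, and the only one called by DESeq2. It had 1.84, 9.80, 0 and 16.5 reads per 1000000 in control and 34.4, 5.44, 105 and 104 at 42°C, with overlapping groups. Its log2 fold change was 3.09 ± 1.21 (adjusted p = 0.052), and over the alternatives tried the adjusted p ran from 0.012 to 0.20. With CHX in heat SIP4 had 81.6 and 197, not called against heat alone (1.13 on the log2 scale). In that comparison none of the 9 was called by edgeR or DESeq2, beside 7.4% of all genes called by edgeR. None had an unadjusted edgeR p below 0.05, beside 1068 of all 5555 genes. In GE for 16 min, none was called by either tool, beside 18.3% of all genes called by edgeR. None had an unadjusted edgeR p below 0.05, beside 1914 of all 5555 genes. CAT8 had 6.81, 14.1 and 126 there, against 27.5, 7.19, 14.9 and 1.502 in control. The mock shift gave the same counts of 0, beside 0.036% of all genes called by edgeR and 136 of 5555 with an unadjusted p below 0.05.

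eIF4A, the DEAD-box helicase of the cap-binding complex, gave the sparsest data. None of the 6 genes tested was called by edgeR in any of its 4 comparisons, beside 0%, 0%, 0.144% and 7.52% of all genes for the mock shift, GE at 30 s, GE at 16 min and 42°C. In each of the first 3 of these, 1 gene had an unadjusted edgeR p below 0.05 and DESeq2 called 1 gene, and at 42°C both counts were 0. Of all 4853 genes, 213, 765, 886 and 1552 had an unadjusted edgeR p below 0.05 in the 4 comparisons. MDH2 was seen in all 6 control libraries, at 20.6 to 69.3 reads per 1000000, and at 30 s in GE it read 293, 236 and 55.6. The first of these is the library labelled 30 s in its description and 16 min in its title. At 42°C MDH2 read 0 in 3 libraries and 190 in the fourth. ADH2 had 0 to 9.85 in control and 16.5 to 126 in GE at 16 min, but also 23.8 to 119 after the mock shift.

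CRAC and RNA-seq changes were set side by side as log2 ratios of group means, without a test. The scales differ: CRAC levels are shares of a library's reads, and RNA-seq levels are relative to the added S. pombe RNA, in an untagged strain. On Ded1 in GE at 16 min, the CRAC change was below the RNA-seq change for CAT8 (1.09 against 4.21), JEN1 (1.49 against 4.32), ACS1 (-1.26 against 3.00), ICL1 (-3.95 against 1.52) and PCK1 (-3.14 against 0.81). For each of these 5 it stayed below with the mock shift as reference and without any 1 library, but its size, and for JEN1 its sign, rested on single libraries. JEN1 read 1.28, 0.68 and 49.7 in the GE libraries and CAT8 16.4, 10.5 and 53.7, and without library 67 their ratios were -2.64 and 0.09. That of ACS1 was then -2.89, and that of ICL1 was -2.46 without control library 65. PCK1 had only 6, 7 and 0 reads in the GE libraries, and MLS1 had 1 read in all 3, so its ratio is not given. SIP4 was above its RNA-seq change over control (1.94 against 1.55) and below it over the mock shift (-1.45), since its 3 control libraries held 10 reads and its 2 mock libraries 66. MDH2 (-0.44 against -0.13) was near the all-gene median difference of -0.43, and ADH2 (0.52 against -0.56) was above it, with 0.06 without library 67.

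At 42°C on Ded1, the order of the CRAC and RNA-seq changes of SIP4 turned with the reference. The CRAC ratio was 6.66 over the control and 3.27 over the mock shift, against 4.66 in RNA-seq. JEN1 was 2.17 against 1.46, but it read 1.53, 11.0 and 70.2 in the heat libraries, and without library 68 its ratio was 0.03. CAT8 was 1.20 against 2.21. On eIF4B, SIP4 (3.14 against 4.66 at 42°C) and ACS1 (-2.23 against 3.00 in GE) were below the RNA-seq change. In both treatments 7 of the 9 genes were below it, and MDH2 and ADH2 were above. Relative to the all-gene median differences of -0.76 at 42°C and -1.31 in GE, 5 and 6 of the 9 were below. With the mock shift as reference it was 4 of the 9 in each. On eIF4A, 3 of the 6 genes tested were below the all-gene median difference at 42°C and 2 of the 6 in GE at 16 min. With CHX in heat, 7 of the 9 genes on eIF4B were below the all-gene median difference of -0.28, and 6 of the 9 with the mock shift as reference. MLS1 and JEN1 differed most, at -0.92 against 2.85 and -0.04 against 3.63. Without control library 08 the CRAC ratio of MLS1 was 0.23 and that of JEN1 1.34, still below RNA-seq. The CHX libraries were counted with a later annotation version than the control, and its effect on these ratios was not tested.

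**Figure D5:**
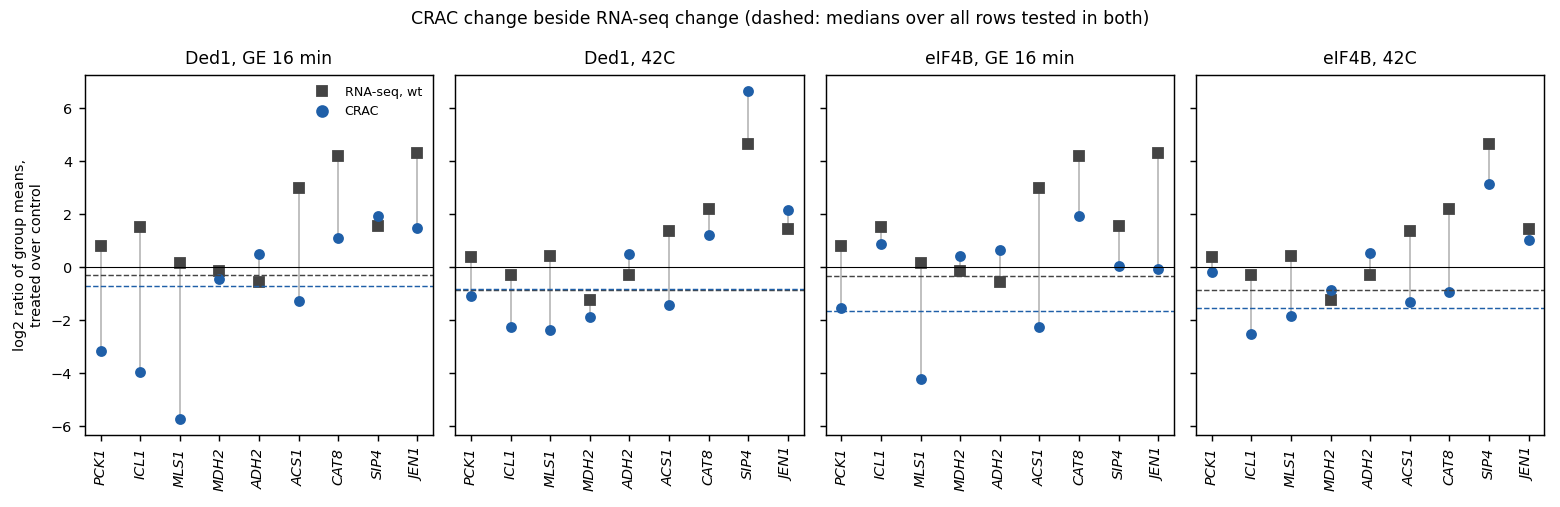
Log2 ratio of group means, treated over control (y axis), in wild-type RNA-seq (squares) and CRAC (circles) for the 9 genes tested (x axis), on Ded1 and eIF4B in GE for 16 min and at 42°C. Dashed lines are medians over all rows tested in both. SIP4 on Ded1 at 42°C had the highest CRAC ratio (6.66, over 10 control reads), while on Ded1 in GE the CRAC ratios of CAT8, JEN1, ACS1 and ICL1 lay below their RNA-seq ratios.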

How the data were processed

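The authors aligned reads with Novoalign to the yeast genome without introns, for RNA-seq joined with that of S. pombe, and counted reads per feature with pyReadCounters, after collapsing identical CRAC reads carrying 3 random nucleotides. CRAC reads that fit several places were assigned randomly, and how such RNA-seq reads were treated is not given in the sources used here. The deposited tables hold counts per feature. RNA-seq tables also hold deposited RPKM values, which were used only to recover annotated transcript lengths. Reads antisense to a feature were used for RNA-seq, as the library chemistry gives, and sense reads for CRAC. Features not listed in a table were taken as 0.

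For RNA-seq, the library size was the summed count on S. pombe chromosomes (531145 to 990246 reads per library, 1.77% to 2.79% of counted reads). All 18 libraries entered 1 edgeR 4.0.16 quasi-likelihood fit (R 4.3.3) over protein-coding rows kept by filterByExpr (minimum count 10, minimum total 15). For CRAC, the library size was all counted reads, with 1 fit per protein. SE values are the log2 fold change divided by the square root of the F statistic. Alternatives used DESeq2 1.42.0, TMM scaling, no filter, other library sizes, left-out libraries, library sets and the mock shift as control. A row named by a number alone was left out (at most 0.0181% of counted reads). No pair of libraries had identical counts. On simulated counts the RNA-seq fits recovered nearly all changed genes, but the CRAC fits by edgeR, simulated at 42°C, recovered a minority or none and DESeq2's CRAC calls included many unchanged genes, so a CRAC gene not called may have changed.

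The 10 genes, given by name, and the lists of related genes were chosen with earlier results of these data known. Genes named besides the 10 were, for each list, the up to 3 called genes with the largest absolute change in GE and at 42°C, the counterparts ADH1, ACS2, MDH1 and MDH3, SKI2, XRN1 and the 5 genes most alike in pattern. The lists were 27 carbon-source genes, 21 regulators, 9 GID genes (8 matched by name), 8 glucose-grown counterparts and 5 label checks. Gene order, used only to find the neighbours of a gene, came from the RefSeq table of assembly R64. The neighbours of SIP4, CAT8 and PCK1 were named after their values were seen. Coordinates and sequences were not used here. The library of eIF4A whose labels give both 30 s and 16 min was placed by its description, with the title's time as an alternative. CRAC libraries 97, 98 and 99 of eIF4B were counted with a later annotation version. In them counted reads exceeded mapped reads (612647 and 487625 in 97, 2016599 and 1546750 in 98, 4139812 and 3488961 in 99), unlike the other libraries. Counted reads are the CRAC scale, and the effect on the levels of these libraries was not tested. CRAC libraries of 1 protein were combined during preparation.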

Additional observations from a re-analysis of the deposited data

Results flagged for a closer look

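The heat responses of 5 genes differed between xrn1 and wild type in the test of that difference. On the log2 scale the xrn1 response minus the wild-type response was 1.91 for JEN1, 1.15 for ACS1, 0.72 for CAT8, -1.40 for SIP4 and -1.08 for PCK1. The wild-type heat libraries of ACS1 themselves differed (1664, 2432 and 720 reads per 1000000 S. pombe reads), and the 720 belongs to the later libraries, to which all xrn1 libraries belong.

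In 46 CRAC group values examined for a library standing apart, 9 were singled out because the gap to the next library filled most of the range. For values without ties chance gives about 1 in 20, but that rate does not hold for sparse counts: in 4 of the 9 all other libraries of the group were at 0, and ICL1 in library 83 and MLS1 in library 56 had 1 and 2 reads. For eIF4A control these were ICL1 at 64.0 reads per 1000000 in library 76 (next 10.4), ACS1 at 200.2 in library 13 (next 58.3) and SIP4 at 34.55 in library 18 (next 7.30). For eIF4A in GE at 16 min they were PCK1 at 52.3 in library 19 (next 2.25) and SIP4 at 182 in library 45 (next 0). For eIF4A at 42°C they were MDH2 at 189.9 in library 54 and ICL1 at 2.04 in library 83, with 0 in the other 3 libraries. For eIF4B they were ICL1 at 45.9 in control library 08 (next 1.96) and MLS1 at 10.9 in 42°C library 56 (next 0). No gene was called in a comparison that uses its value singled out here.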

How the results depend on the processing

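Scaling mattered most. With TMM scaling, which removes the shift of all genes, these log2 changes changed sign. At 42°C in wild type, ADH2 became 0.61 and ICL1 0.62. At 42°C in ski2, ADH2 became 0.47 and ICL1 0.75. At 42°C in xrn1, ADH2 became 0.36, ICL1 0.12, MLS1 0.86 and PCK1 0.23. PCK1 at 42°C against GE became 0.20, and with CHX against heat alone CAT8 became -0.36 and ICL1 -0.21. In libraries H to S alone ACS1 with CHX against heat became 0.034. The causes were not tested beyond the scaling itself.

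Of the counts of genes called in RNA-seq, that of wild type at 42°C became 10 with TMM scaling. In libraries H to S alone, xrn1 control became 5, the xrn1 interaction 3 and ski2 against wild type at 42°C 0, and DESeq2 also gave 0 for the last. Leaving out each library gave 0 to 3 for ski2 against wild type at 42°C and 0 to 1 for the ski2 interaction.

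The CRAC counts were less stable. For Ded1 in GE at 16 min the count of 1 became 0 with TMM scaling, with library size on protein-coding rows, with library set as a term and against the mock shift, and 0 to 1 leaving out each library. For Ded1 in GE at 30 s it became 0 with TMM scaling and with protein-coding library size, 2 with DESeq2 and with library set as a term, and 0 to 0 leaving out each library. For eIF4B in GE at 30 s it became 0 with TMM scaling and with protein-coding library size, 4 with DESeq2, and 0 to 1 leaving out each library. For eIF4B at 42°C the count of 0 became 1 with DESeq2, TMM scaling, no filter and protein-coding library size, and 0 to 1 leaving out each library. For eIF4B in GE at 16 min it became 1 against the mock shift. For eIF4A it became 1 at 42°C with no filter, and 1 in each of GE at 16 min, GE at 30 s and the mock shift with DESeq2. The causes were not tested. Leaving out libraries 97, 98 and 99 of eIF4B, chosen after seeing the data, changed no call of a gene. The CRAC ratios over the mock shift and without each library, and the bound for ACS1 on eIF4B without control library 21, were also chosen after seeing the data. CRAC depth limits these results, since many values rest on few reads.

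Counts over all genes moved by more than 1.5 times in these cases. In RNA-seq, xrn1 control went from 3439 to 1908 in libraries H to S alone, the xrn1 interaction from 1559 to 897 there and 2536 with TMM scaling, and ski2 against wild type at 42°C from 138 to 4 there and 61 with DESeq2. Ski2 control went from 16 to 8, 8 and 7 in H to S, TMM and DESeq2, and the ski2 interaction from 2 to 0 in each. In CRAC, with protein-coding library size, TMM and DESeq2 in that order, eIF4B in GE at 30 s went from 594 to 0, 0 and 2076, eIF4B in GE at 16 min from 1017 to 170, 108 and 1709, eIF4B with CHX from 411 to 196, 139 and 618, Ded1 in GE at 30 s from 473 to 220, 178 and 1173, Ded1 in GE at 16 min from 226 to 132, 123 and 618, and eIF4A at 42°C from 365 to 213, 216 and 998. For eIF4B at 42°C 1441 became 871 and 779 in the first pair. With library set as a term, Ded1 gave 1111 at 30 s and 369 at 16 min in GE. For eIF4A in GE at 16 min 7 became 243 with DESeq2, 19 with no filter and 17 with library 51 placed there, and for eIF4A in GE at 30 s 0 became 207 with DESeq2. After the mock shift the counts stayed at 13 or fewer under the alternatives.

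No paired analysis was possible because the labels give libraries of different groups no shared replicate numbers.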
